A study of Mus musculus with 11 samples.

Results

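The genes described here encode the platelet-derived growth factor (PDGF) receptors, the receptor tyrosine kinase KIT and their ligands. They are 7 listed genes, namely the receptors Pdgfra, Pdgfrb and Kit and the ligands Pdgfa, Pdgfb, Pdgfc and Kitl, out of 48952 genes in the bulk count table and 32285 in the single-cell tables. The list was drawn up by name, and all 7 were found in every table.

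PDGF ligands are secreted dimers that bring a pair of receptor chains together, after which the kinase domains phosphorylate each other. PDGFRA responds to the products of Pdgfa, Pdgfb and Pdgfc, whereas PDGFRB is mainly the receptor for the product of Pdgfb. KIT belongs to the same receptor family and is activated by Kitl, also called stem cell factor. In the mouse blastocyst, PDGFRA is a surface marker of the primitive endoderm (PrE), and Pdgfa is known as a ligand made by its epiblast neighbours.

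The cells were mouse naive extra-embryonic endoderm (nEnd), a stem cell culture that models the PrE, grown on feeder fibroblasts in RACL, a medium with Activin A, the GSK3 inhibitor CHIR99021 and LIF. For the bulk part, nEnd with an OCT4-mCherry protein reporter, otherwise untreated, were stained for PDGFRA and sorted by both signals. Cells with PDGFRA alone are called Pdgfra+, those with PDGFRA and the reporter DP, and those with the reporter alone Oct4+, and each group has 3 libraries. For the single-cell part, nEnd of a homozygous Oct4 loss-of-function line (Oct4LOF, labelled EPUc) were sorted for PDGFRA. They were cultured with 4-hydroxytamoxifen, which deletes Oct4 (+4OHT), or left untreated (-4OHT), with 1 droplet library per condition. Per the study, 4OHT was then withdrawn and culture continued in RACL, and the cells were profiled days after the PDGFRA sort. The -4OHT cells carried the same inducible allele, and each genotype was 1 line. An aim of the study was to separate the states within nEnd and to ask what Oct4 (gene symbol Pou5f1) contributes to them.

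The libraries largely held the cells their labels name. Total counts in bulk ran from 8019631 to 11642571 reads. The 10 endoderm markers summed to between 25780 and 43750 CPM (counts scaled to a common library total) in Pdgfra+ and DP and to between 175 and 454 CPM in Oct4+. Pou5f1 was highest in Oct4+ (861 to 1137 CPM), intermediate in DP (132 to 310.3 CPM) and lowest in Pdgfra+ (8.37 to 26.4 CPM). In single cells, Pou5f1 stood at 40.3 CPM in the -4OHT library and at 2.78 CPM in the +4OHT library. Of its 3910 UMIs in -4OHT, 90.7% came from epiblast-like cells, a class described below that had no cells in +4OHT. The whole-library values therefore do not show how far Pou5f1 differed within endoderm-like cells, for which ratios are given below. Of 14179 barcodes, 11756 were used, 5380 from -4OHT at a median of 17179.5 unique molecular identifiers (UMIs) and 6376 from +4OHT at a median of 12125.5. The libraries shared 21 barcode sequences, which were left in. Barcodes with the highest simulated-doublet scores, 283 and 336, were left out.

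Pdgfra and Kit lie beside each other on chromosome 5, in the same orientation. In the GENCODE annotation of GRCm38, Pdgfra spans chr5:75152292-75198215 on the plus strand and Kit spans chr5:75574916-75656722 on the plus strand, with 376.7 kb between them. Pdgfa lies far off on the same chromosome (chr5:138976014-138997370, minus strand), while Kitl is at chr10:100015630-100100416 (plus strand), Pdgfc at chr3:81036416-81214040 (plus strand) and Pdgfb at chr15:79995874-80014977 (minus strand). All are protein coding.

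The promoters of the 4 members with the most UMIs in the single-cell libraries are shown, so that the neighbours Pdgfra and Kit and the ligands Pdgfa and Kitl can be compared in base composition and motifs. RefSeq entries for GRCm38.p6 matched 5 of 7 members, and each window runs from 250 bases before to 50 bases after the start of transcription, 5′ to 3′ on the strand of the gene. Kit and Pdgfa have 2 listed starts each, of which 1 is shown. The windows are chr5:75152001-75152300 (plus) for Pdgfra, chr5:75574737-75575036 (plus) for Kit, chr5:138994895-138995194 (minus) for Pdgfa and chr10:100015571-100015870 (plus) for Kitl. Capitals mark matches to any of 5 motifs, searched on both strands.
Pdgfra: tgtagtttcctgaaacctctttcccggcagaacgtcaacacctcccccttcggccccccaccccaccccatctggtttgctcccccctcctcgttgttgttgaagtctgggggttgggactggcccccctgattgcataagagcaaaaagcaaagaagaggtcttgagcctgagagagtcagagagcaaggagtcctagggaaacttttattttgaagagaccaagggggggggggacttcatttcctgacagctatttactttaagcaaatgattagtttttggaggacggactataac
Kit: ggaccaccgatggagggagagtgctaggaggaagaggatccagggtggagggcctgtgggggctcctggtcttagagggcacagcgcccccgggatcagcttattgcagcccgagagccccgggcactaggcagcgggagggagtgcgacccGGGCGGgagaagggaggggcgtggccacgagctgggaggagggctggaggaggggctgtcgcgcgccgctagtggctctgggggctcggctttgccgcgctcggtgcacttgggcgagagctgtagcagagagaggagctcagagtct
Pdgfa: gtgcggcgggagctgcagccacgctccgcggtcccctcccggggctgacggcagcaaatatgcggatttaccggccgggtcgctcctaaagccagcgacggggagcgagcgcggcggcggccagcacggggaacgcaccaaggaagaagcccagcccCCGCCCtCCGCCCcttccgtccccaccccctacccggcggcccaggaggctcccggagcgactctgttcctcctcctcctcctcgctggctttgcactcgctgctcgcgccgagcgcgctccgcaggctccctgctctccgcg
Kitl: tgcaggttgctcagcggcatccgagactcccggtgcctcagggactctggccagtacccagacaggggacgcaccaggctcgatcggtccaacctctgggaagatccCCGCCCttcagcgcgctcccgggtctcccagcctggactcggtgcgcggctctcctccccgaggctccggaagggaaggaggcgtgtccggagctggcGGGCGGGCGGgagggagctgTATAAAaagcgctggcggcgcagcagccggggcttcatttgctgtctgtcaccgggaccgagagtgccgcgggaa
The motifs were GATAA (bound by GATA factors), ATTTGCAT (the octamer bound by POU factors such as OCT4), TATAAA (the TATA box), CCAAT and GGGCGG (the GC box). The Pdgfra window held none of the 5 and was 51.0% G or C, close to the median of 52.7% over the 32851 promoters in the table. The Kit window held 1 GC box and was 69.0% G or C, and the Pdgfa window held 2 GC boxes and was 73.3% G or C. The Kitl window held a TATA box with its first base 25 bases before the start and 3 GC boxes, 2 of which overlap. The Pdgfc window (chr3:81036166-81036465, plus), which is not shown, held none of the 5 and was 55.0% G or C. Among all promoters, 25.4% held GATAA, 1.74% the octamer, 13.6% TATAAA, 37.4% CCAAT and 35.7% GGGCGG.

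Pdgfra, the receptor used for the sort, was the most abundant member per unit length in the PDGFRA-positive sorts. Its level was 684, 535 and 967 CPM in Pdgfra+ replicates 1 to 3, 630.4, 420.1 and 718 CPM in DP, and 4.96, 12.1 and 5.21 CPM in Oct4+. The Oct4+ libraries lay far below the others, and Pdgfra+ and DP overlapped. Relative to Pdgfra+, the log2 fold change in Oct4+ was -6.62 (SE 0.43, edgeR adjusted p = 2.68e-06), a 98.2-fold lower level, and DP stood 79.5-fold above Oct4+ (log2 6.31, SE 0.43, edgeR adjusted p = 4.57e-06). PDGFRA protein defined these groups, so this difference only checks the sort. Between DP and Pdgfra+, which were both sorted as PDGFRA-positive, the log2 fold change was -0.31 (SE 0.33, edgeR adjusted p = 0.598). The study calls these biological replicates. The labels do not say whether they came from separate cultures, so p-values measure the spread between these samples, part of which may be technical. In bulk libraries, fewer cells of a type and less RNA per cell cannot be told apart.

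**Figure D1:**
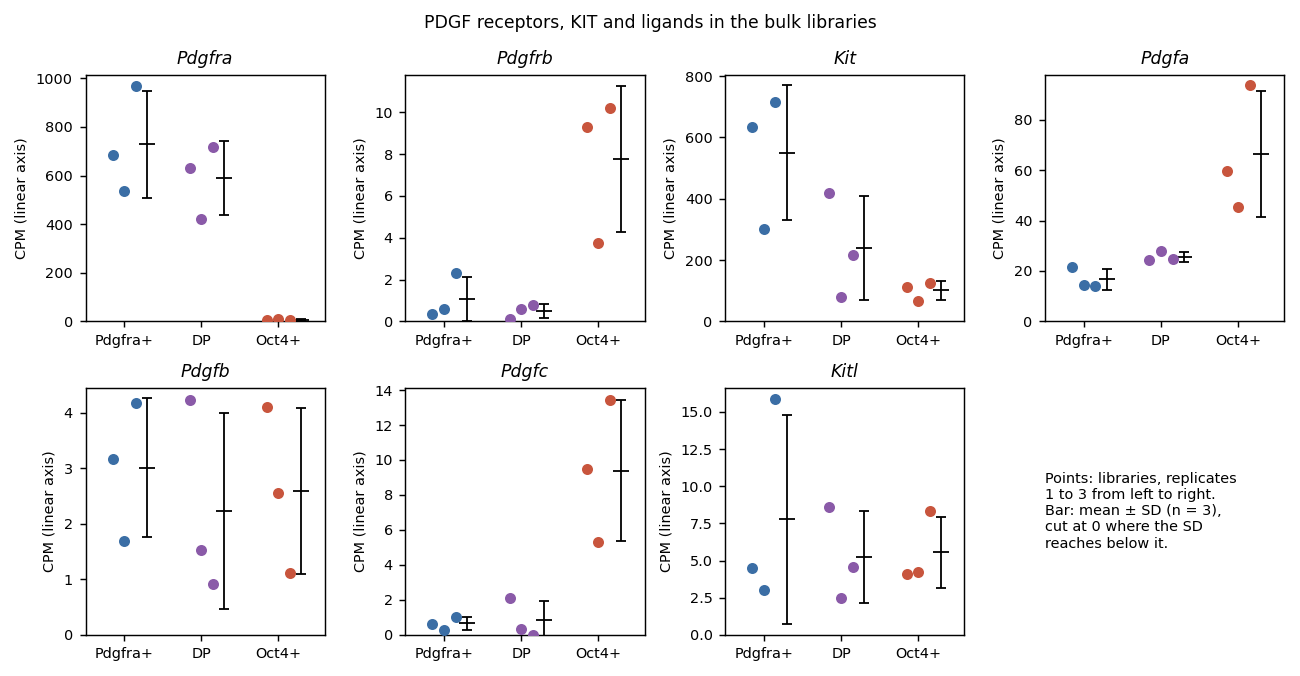
Level of each member in the 9 bulk libraries, in CPM on linear axes that differ between panels, with the mean ± SD (n = 3) beside the points. Pdgfra is high in Pdgfra+ and DP, and Kit is highest on average in Pdgfra+, with DP overlapping both other groups. Pdgfa, Pdgfc and Pdgfrb are highest in Oct4+, and Pdgfb and Kitl overlap across all 3 groups.

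Calls below use an adjusted p below 0.05 together with an absolute log2 fold change above 1.5. All 7 members passed the filter on low counts. Between Oct4+ and Pdgfra+, 5 of 7 members passed the threshold, where 32.0% of the 14185 genes tested did (17.3% higher and 14.7% lower in Oct4+). Between DP and Oct4+ it was 3 of 7, against 27.7% of all genes (13.1% higher and 14.6% lower in DP). Pdgfra, whose protein defined the groups, is among those that passed in both of these comparisons, and its call only checks the sort. Between DP and Pdgfra+ none of 7 passed by edgeR, and 2 of 7 had an unadjusted p below 0.05, where 3.89% (3.20% higher and 0.691% lower in DP) and 25.5% of all genes did. An adjusted p below 0.05 alone was met by 6.87% of genes between DP and Pdgfra+, 56.2% between DP and Oct4+ and 63.2% between Oct4+ and Pdgfra+. DESeq2 called none of 7 between DP and Pdgfra+. The comparisons share groups, so their results are not independent of each other.

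Kit, the stem cell factor receptor, was nearly as abundant per unit length as Pdgfra in Pdgfra+ cells, at a mean of 61.8 RPKM (CPM divided by the exon length in kilobases) beside 72.7 RPKM. Its level was 633, 301.2 and 716 CPM in Pdgfra+ replicates 1 to 3, 418, 80.8 and 217 CPM in DP, and 112, 67.7 and 125 CPM in Oct4+. Mean levels ran in the order Pdgfra+, DP, Oct4+, with overlap at each step between neighbours but none between Pdgfra+ and Oct4+. Kit was 5.42-fold lower in Oct4+ than in Pdgfra+ (log2 -2.44, SE 0.54, edgeR adjusted p = 0.00281). DP exceeded Oct4+ by 2.35-fold (log2 1.23, SE 0.52, edgeR adjusted p = 0.0664), a difference that did not pass.

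Between the PDGFRA-positive populations, the Kit difference did not pass the threshold. It was 2.3-fold lower in DP than in Pdgfra+ (log2 -1.21, SE 0.52, edgeR adjusted p = 0.181). The DP library was the lower one in 3 of 3 pairs with the same replicate number, a pattern whose share over all genes was not computed. With the replicate number as a block, the log2 fold change was -1.36 with an edgeR adjusted p of 0.0346 over 9 libraries, and -1.39 with 0.0221 over the 6 libraries compared. Both passed on p but not on fold. DP replicate 1 had the highest Kit level of the DP libraries, and without it the log2 fold change was -1.89 with an edgeR adjusted p of 0.0479, past both limits. Without any other single library Kit did not pass. The edgeR adjusted p then ran from 0.142 (without Pdgfra+ replicate 2) to 0.42 (without Pdgfra+ replicate 3). DP replicate 1 also had the lowest levels of Amn and Cubn, which form the endocytic receptor of visceral endoderm, among DP replicates 1 to 3. Amn was at 459.6, 818 and 709.9 CPM and Cubn at 1450, 2770 and 2850 CPM. These genes were looked at after the single-cell values below, and their part in the Kit difference was not tested.

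Pdgfrb, the other PDGF receptor, was low everywhere and highest in Oct4+. It was at 9.3, 3.75 and 10.2 CPM in Oct4+ replicates 1 to 3, at 0.366, 0.598 and 2.3 CPM in Pdgfra+, and at 0.125, 0.59 and 0.784 CPM in DP. Every Oct4+ library lay above every other library. The rise in Oct4+ was 6.98-fold over Pdgfra+ (log2 2.80, SE 0.70, edgeR adjusted p = 0.00548) and 15.2-fold over DP (DP relative to Oct4+ log2 -3.92, SE 0.78, edgeR adjusted p = 0.00179). Per unit length Oct4+ reached a mean of 1.41 RPKM for Pdgfrb, which stood beside 0.741 RPKM for Pdgfra and 11.4 RPKM for Kit in the same libraries.

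Fibroblasts are known to make Pdgfrb, and the cultures held feeder fibroblasts, so fibroblast markers are given beside it. The 10 fibroblast markers summed to 163, 27.5 and 14.6 CPM in Oct4+ replicates 1 to 3, to 71.5, 142 and 48.2 CPM in Pdgfra+ and to 57.1, 58.4 and 14.4 CPM in DP. Between 1 and 7 of the 10 were at 0 in each library. The sums mix opposite changes, since Fbn1, a microfibril protein, made up most of them in Pdgfra+ and DP, at means of 81.5 CPM and 38.8 CPM, against 8.35 CPM in Oct4+. Of the 5 that were tested, Thy1 (log2 6.56), Col1a1 (log2 4.62) and Col1a2 (log2 3.24) were higher and Fbn1 (log2 -3.27) lower in Oct4+ than in Pdgfra+ past the threshold, with a median of 3.24. Between DP and Oct4+, Col1a1 (log2 -5.90) and Thy1 (log2 -3.27) were lower and Fbn1 (log2 2.20) higher in DP. Col1a1, a collagen of fibroblasts, was at 68.3, 5.22 and 2.66 CPM in the Oct4+ libraries, against 0 to 2.61 CPM in Pdgfra+ and DP. Among the Oct4+ libraries, replicate 3 had the highest Pdgfrb and the lowest Col1a1. Without Oct4+ replicate 1 the log2 fold change over Pdgfra+ was 2.63 (edgeR adjusted p = 0.0184). Their part in the Pdgfrb difference was not tested.

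**Figure D2:**
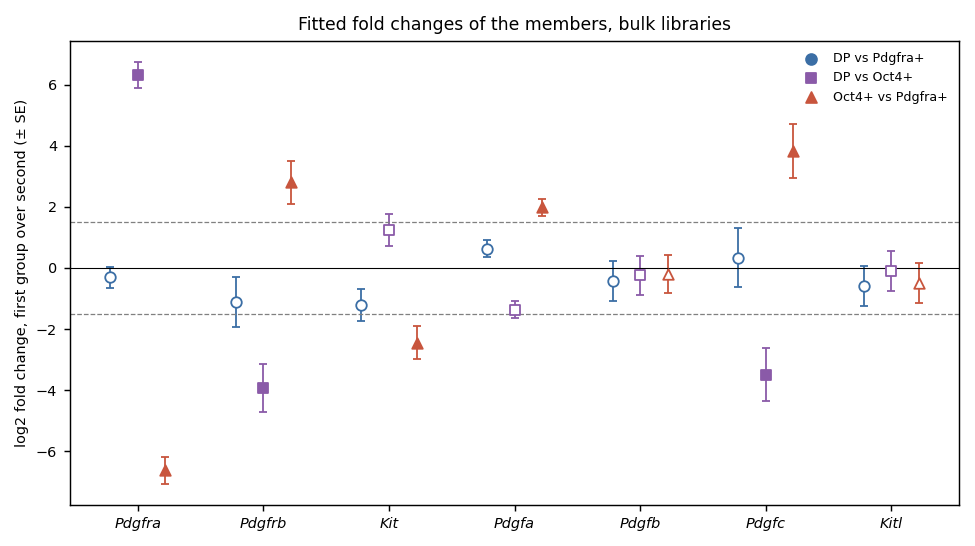
Log2 fold change of each member, first group over second, with its SE, from edgeR over all 9 bulk libraries. Filled symbols passed an adjusted p of 0.05 and a log2 fold change of 1.5 (dashed lines), which 5 members did between Oct4+ and Pdgfra+, 3 between DP and Oct4+ and none between DP and Pdgfra+. Pdgfra, whose protein was sorted on, is among those that passed against Oct4+.

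Pdgfa, which encodes the A chain, followed the opposite order to Kit. It was at 21.6, 14.5 and 14 CPM in Pdgfra+ replicates 1 to 3, at 24.4, 28 and 24.7 CPM in DP, and at 59.5, 45.2 and 93.8 CPM in Oct4+. No library of any group overlapped with those of another. Oct4+ exceeded Pdgfra+ by 3.97-fold (log2 1.99, SE 0.28, edgeR adjusted p = 0.000172). DP was 2.57-fold below Oct4+ (log2 -1.36, SE 0.27, edgeR adjusted p = 0.00188), which passed on p but not on fold. DP exceeded Pdgfra+ by 1.54-fold (log2 0.63, SE 0.28, edgeR adjusted p = 0.188), which did not pass. Groups that did not overlap were common, at 34.2% of all genes between DP and Pdgfra+, 62.6% between DP and Oct4+ and 69.3% between Oct4+ and Pdgfra+.

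Pdgfa was also the most abundant ligand per unit length in every group, at means of 5.35 RPKM in Pdgfra+, 8.24 RPKM in DP and 21.2 RPKM in Oct4+. Receptor and ligand were in opposite order between the sorts, of which the receptor was the sorted one. Pdgfra+ cells held 72.7 RPKM of Pdgfra and 5.35 RPKM of Pdgfa, and Oct4+ cells held 0.741 RPKM and 21.2 RPKM.

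Pdgfc, a ligand that needs cleavage of its CUB domain before it binds, had the same direction at a lower level. It was at 9.46, 5.32 and 13.4 CPM in Oct4+ replicates 1 to 3, at 0.61, 0.299 and 1.04 CPM in Pdgfra+, and at 2.12, 0.354 and 0 CPM in DP. The Oct4+ libraries lay above all others, while Pdgfra+ and DP overlapped. Oct4+ exceeded Pdgfra+ by 14.2-fold (log2 3.83, SE 0.89, edgeR adjusted p = 0.00368) and DP by 11.2-fold (DP relative to Oct4+ log2 -3.48, SE 0.87, edgeR adjusted p = 0.0067). The DP library at 0 enters these fitted values, so the fold against DP depends on the prior count.

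Pdgfb and Kitl did not separate the sorts. Pdgfb, the B chain and the main ligand of PDGFRB, ranged from 0.915 to 4.24 CPM over the 9 libraries, with edgeR adjusted p-values of 0.708, 0.778 and 0.799 in the 3 comparisons. Kitl ranged from 2.48 to 15.9 CPM, with edgeR adjusted p-values of 0.609, 0.924 and 0.523. The highest Kitl value was Pdgfra+ replicate 3, and without it the log2 fold change of Oct4+ over Pdgfra+ turned from -0.50 to 0.54. Both genes overlapped between all groups, at SEs of 0.63 to 0.66 on the log2 scale.

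Genes with profiles most like each member were ranked by the root mean square difference of centred log2 CPM over the 9 libraries, in which the 3 libraries of a group share a sort. Closest to Pdgfra were Sox17 (0.246), an endoderm transcription factor, Lamb1 (0.253), a laminin chain of basement membrane, and Chst15 (0.411), where the median over all genes was 3.13. Kit was closest to Slc30a1 (0.281), Ier3 (0.284) and Rnf24 (0.286), with a median of 1.28 over all genes. Pdgfa was closest to Smad7 (0.222), an inhibitor of TGF-beta receptors, Zdhhc18 (0.242) and Trim6 (0.25), with a median of 1.01. For Pdgfrb these genes were Plxna4 (0.368), Ksr1 (0.516) and Tgfbi (0.517), and for Pdgfc St6gal1 (0.493), Ttll7 (0.588) and Ntn1 (0.663). Pdgfb and Kitl, which varied within groups, had Epor (0.337), Sox13 (0.374) and Gipr (0.398), and Wls (0.391), Dstyk (0.421) and D3Ertd751e (0.425).

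Enzymes and coreceptors that act on these ligands changed in either direction. Of 11 listed genes, 10 were tested, and 2 were past the threshold and higher and 4 lower in Oct4+ than in Pdgfra+ (median log2 -0.72, against 0.01 over all genes). Among all genes, 17.3% were past the threshold and higher and 14.7% lower. Mmp9, a gelatinase that releases KITL from the membrane, was higher, at means of 0.0664 CPM in Pdgfra+ (2 reads in all) and 5.27 CPM in Oct4+ (edgeR adjusted p = 0.000341). Plat, the plasminogen activator that cleaves the CUB domain of PDGF-C, was lower (log2 -5.77, SE 0.68, edgeR adjusted p = 5.89e-05). Between DP and Oct4+, 4 of these genes were higher in DP and 2 lower, including Plat (log2 4.66) and Furin (log2 2.85), the convertase that processes the A and B chains. Over all genes these shares were 13.1% and 14.6%.

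Pcsk6, another proprotein convertase, was the single pathway gene that passed between DP and Pdgfra+. Its mean level was 7.62 CPM ± 4.49 in Pdgfra+ (SD, n = 3), 74.2 CPM ± 26 in DP and 84.6 CPM ± 19.1 in Oct4+. DP exceeded Pdgfra+ by a log2 of 3.29 (SE 0.47, edgeR adjusted p = 0.011). Oct4+ exceeded Pdgfra+ by a log2 of 3.48 (SE 0.48, edgeR adjusted p = 0.000148).

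Related receptors and ligands, which include VEGF receptors and their ligands, separated the sorts further. Of 12 listed, 11 were tested, and 3 were higher and 5 lower in Oct4+ than in Pdgfra+ past the threshold (median log2 -0.52, against 0.01 over all genes). Among all genes, 17.3% were higher and 14.7% lower. Flt1, the VEGF receptor and decoy, was the most changed, at means of 1401, 516 and 8.91 CPM in Pdgfra+, DP and Oct4+ (Oct4+ over Pdgfra+ log2 -7.30, SE 0.75, edgeR adjusted p = 2.64e-05). Il34, a ligand of the macrophage receptor CSF1R, rose in Oct4+ from a mean of 0.0814 CPM in Pdgfra+ (2 reads in all) to 7.62 CPM (edgeR adjusted p = 0.000803), and Vegfc, a ligand of FLT4, rose as well (log2 5.92, SE 0.49, edgeR adjusted p = 8.18e-06). Between DP and Oct4+, 3 were higher and 3 lower in DP, including Flt1 (log2 5.86) and Vegfc (log2 -4.47), with Il34 at 0.199 CPM in DP. Over all genes, 13.1% were higher and 14.6% lower in DP. None of these 11 passed between DP and Pdgfra+.

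Among genes that act inside the cell, few of the listed ones passed the threshold. Between Oct4+ and Pdgfra+, 32.0% of all genes passed it. Of 21 adaptors and signal enzymes, all tested, 4 passed between Oct4+ and Pdgfra+, namely the kinases Lyn (log2 -1.67) and Jak2 (log2 -1.58) and the transcription factor Stat5b (log2 -1.58), which were lower in Oct4+, and the kinase subunit Pik3cd (log2 1.57), which was higher. Their median log2 fold change was -0.61, against 0.01 over all genes, and 12 of 21 had an adjusted p below 0.05, where 63.2% of all genes did. Lyn (log2 2.27) and Pik3r1 (log2 1.53) were higher in DP than in Oct4+ and none passed between DP and Pdgfra+. Of 13 negative regulators, Spred2, an inhibitor of the RAS and ERK pathway, was higher in Oct4+ than in Pdgfra+ (log2 1.93, SE 0.25, edgeR adjusted p = 9.59e-05), and no others passed in any comparison, although 7 of 13 had an adjusted p below 0.05 between Oct4+ and Pdgfra+.

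The genes around Pdgfra and Kit were compared because the receptors are neighbours. Of 8 listed neighbours, 6 were tested, and none passed the threshold in any comparison. Between Oct4+ and Pdgfra+, 3 of 6 had an adjusted p below 0.05, where 63.2% of all genes did. The 3 were Srd5a3 (log2 -1.06), Tmem165 (log2 -0.98) and Chic2, whose value lay between them. Kdr, the third receptor gene of this cluster, begins its annotated span 276.1 kb past Kit and was at 3.55, 3.3 and 2.44 CPM on average in Pdgfra+, DP and Oct4+. At 0.271 to 0.393 RPKM it was far below Kit, and its log2 fold change of -0.52 between Oct4+ and Pdgfra+ (SE 0.62, edgeR adjusted p = 0.486) did not pass.

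In single cells, the 11756 barcodes fell into 12 clusters made without the 7 members, and each cluster was named from marker genes. Endoderm-like clusters numbered 5, with 1354 cells in the -4OHT and 6127 in the +4OHT library. Epiblast-like clusters numbered 3, with 3801 cells, all from -4OHT. A trophectoderm-like cluster held 44 and 190 cells, a 2-cell-like cluster 100 and 4, and a fibroblast-like cluster 20 and 29, in -4OHT and +4OHT. A cluster of 87 cells at a median of 4089 UMIs stayed unnamed. With 1 library per condition no test was possible, and the 95% intervals below, exact Poisson for levels and exact binomial for shares of cells, cover counting error only. Levels are CPM of the UMIs summed over the cells of a class, without regard to transcript length.

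Pdgfra marked the endoderm-like cells. It stood at 154.8 CPM (95% interval 149.5 to 160.2) in endoderm-like cells of the -4OHT library and at 1.69 CPM (1.41 to 2.02) in epiblast-like cells, and 95.5% of its 3415 UMIs in that library came from endoderm-like cells, which were 25.2% of the cells. A Pdgfra UMI was seen in 82.6% of endoderm-like cells at a median depth of 14349.5 UMIs and in 2.79% of epiblast-like cells at a median of 18470. No level of free RNA in empty droplets was measured here, and whether the low share in epiblast-like cells is expression was not tested.

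Pdgfa showed the opposite distribution. Epiblast-like cells of the -4OHT library held 138.6 CPM (136 to 141) and endoderm-like cells 27.9 CPM (25.6 to 30.2), so that 93.2% of 10884 Pdgfa UMIs came from the epiblast-like 70.7% of cells. Pdgfa UMIs were seen in 75.5% of epiblast-like and 28.1% of endoderm-like cells, and in 56.7% and 16.8% when each cell was thinned to 7600 UMIs. Among epiblast-like cells with Pdgfa, 2.86% also had Pdgfra, close to the 2.79% of all epiblast-like cells. Most cells with Pdgfa UMIs and most cells with Pdgfra UMIs were thus different cells in that library. Endoderm-like cells had UMIs of both. A Pdgfa UMI occurred in 28.9% of those with Pdgfra and in 24.7% of those without in -4OHT, and in 25% and 26.7% in +4OHT, where no epiblast-like cluster was present and their Pdgfa level was 28.8 CPM (27.7 to 30).

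**Figure D3:**
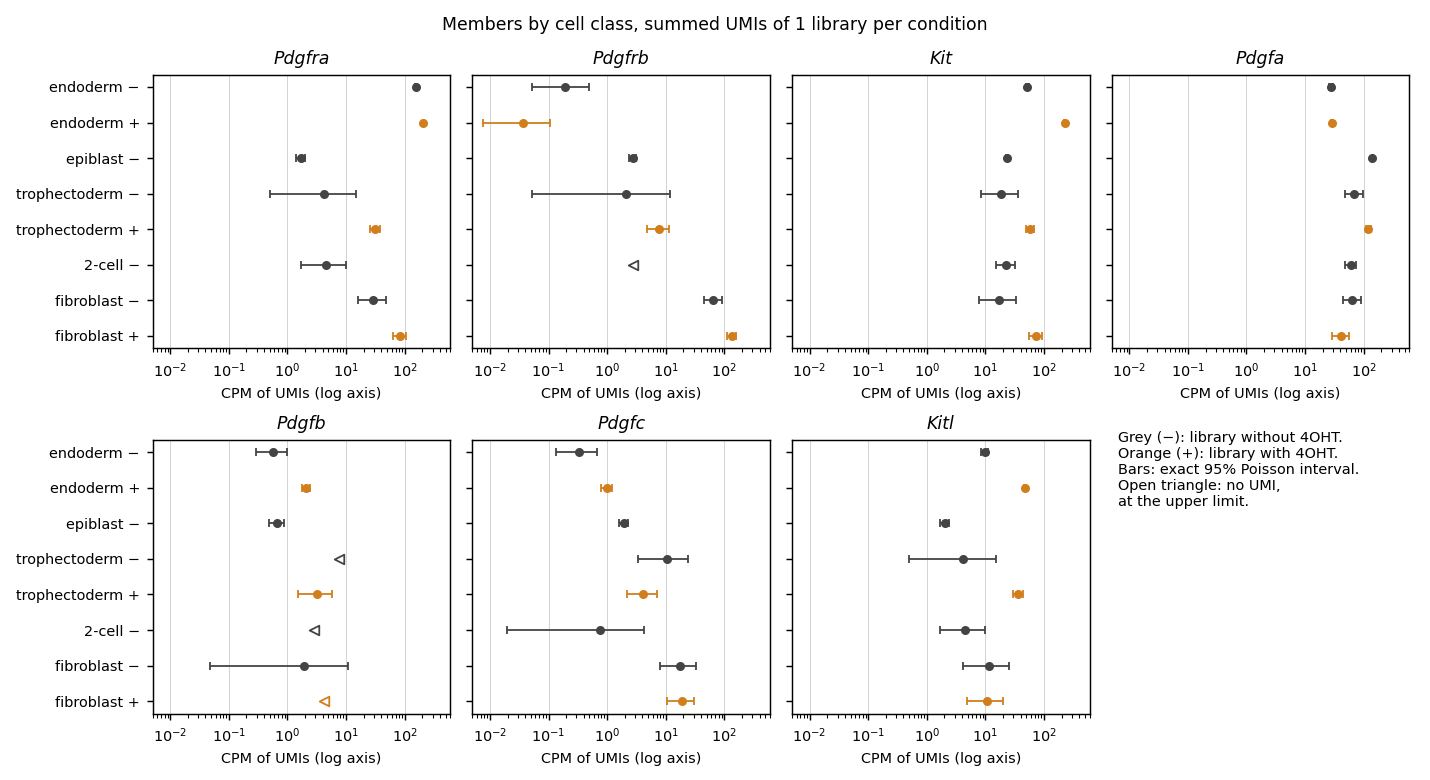
Level of each member by cell class and library, in CPM of UMIs on a log axis, with the exact 95% Poisson interval. Pdgfra is highest in endoderm-like cells of either library, Pdgfa (among classes of at least 20 cells) in epiblast-like cells, Pdgfrb and Pdgfc in fibroblast-like cells, and Kit and Kitl in endoderm-like cells with 4OHT.

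The epiblast-like clusters differed among themselves in Pdgfa. It reached 181 CPM (178 to 185) in the cluster led by Cdx1 and Mylpf, 63.6 CPM (60.5 to 66.9) in the cluster led by Calcoco2 and 68.8 CPM (58 to 81.1) in the small cluster that also held Otx2 and Pou3f1 among its leading genes. The last pair overlapped within counting error. The trophectoderm-like cells of +4OHT held 120 CPM (108 to 133) of Pdgfa, along with 31.2 CPM of Pdgfra. These cells also carried 1422 CPM of summed endoderm markers and 829 CPM of summed epiblast markers, beside 157.5 CPM of trophectoderm markers. They made up 2.98% of cells and 13.6% of the Pdgfa UMIs there.

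Kit was present in endoderm-like and epiblast-like cells. In the -4OHT library it stood at 51.7 CPM (48.6 to 54.8) in endoderm-like and at 23.3 CPM (22.2 to 24.4) in epiblast-like cells, with 38.3% and 59.9% of its 2841 UMIs. Kit to Pdgfra ratios of UMIs were 0.334 (0.311 to 0.357) and 13.7 (11.4 to 16.6), so Kit in epiblast-like cells was not in the proportion to Pdgfra found in endoderm-like cells. Kit UMIs were seen in 33.1% of epiblast-like cells, and in 8.42% of an endoderm-like cluster of the same library at a median of 17762 UMIs.

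That endoderm-like cluster, led by Amn and Cubn, was nearly free of Kit. It held 689 cells of -4OHT and 2 of +4OHT, with Amn at 532 CPM and Cubn at 735 CPM over both libraries. Its Kit level in -4OHT was 5.72 CPM (4.48 to 7.19), whereas Pdgfra was 147.8 CPM (141 to 155). In the same library the clusters led by Ccn2 and Ccn1, by Pimreg and Car4, by Gkn2 and Gkn1 and by Igfbp1 and Cpm had Kit at 131, 107.9, 230.3 and 110.2 CPM and Pdgfra at 160.4, 171, 149 and 163 CPM. Pdgfra was therefore nearly even across the endoderm-like clusters and Kit was not.

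Kitl also differed between these clusters, and was low in a further one. It was at 0.548 CPM (0.22 to 1.13) in the cluster led by Amn and Cubn and at 2.55 CPM (0.829 to 5.96) in that led by Igfbp1, against 27.3, 19.6 and 109.4 CPM in those led by Ccn2, Pimreg and Gkn2. The cluster led by Gkn2, with secreted products of gastric epithelium among its leading genes, was highest for Kit and Kitl in both libraries. In +4OHT it had Kit at 349.5 CPM (340 to 359) and Kitl at 85.4 CPM (80.7 to 90.3).

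The clusters also differed in Pou5f1 and in epiblast markers. Endoderm-like cells of -4OHT with a Pou5f1 UMI (105 cells thinned to 7600 UMIs) had Kit at 10 CPM (4.33 to 19.8), and those without (1147 cells) at 64.8 CPM (59.6 to 70.4). Their Pdgfra levels were 175 CPM (148 to 207) and 165 CPM (156 to 174), which overlapped. In +4OHT, Kit was at 216 CPM (178 to 258) in the 72 cells with a Pou5f1 UMI and at 228 CPM (224 to 233) in the 5310 without, which overlapped as well. Pou5f1 UMIs in the cluster led by Amn and Cubn stood at 20.9 CPM in -4OHT, against 1.71, 5.02 and 6.63 CPM in those led by Ccn2, Pimreg and Gkn2. Epiblast markers averaged 0.15 of their level in the highest cluster there and 0.03 in each of the other 3, and their part in the Kit level was not tested.

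Kit, Kitl and Pdgfra were higher with 4OHT in endoderm-like cells. Between -4OHT and +4OHT, Kit went from 51.7 to 224.7 CPM, a ratio of 4.35 (4.09 to 4.63), Kitl from 9.68 to 47.4 CPM, a ratio of 4.9 (4.25 to 5.66), and Pdgfra from 154.8 to 208.8 CPM, a ratio of 1.35 (1.3 to 1.4). Pdgfa had a ratio of 1.03 (0.945 to 1.13), whose interval includes 1. These ratios rest on different cells. Of the -4OHT cells, 689 of 1354 were in the cluster led by Amn and Cubn, and most +4OHT cells were in those led by Ccn2 (2566), Pimreg (2145) and Gkn2 (1404). Without the Amn and Cubn cluster, an alternative added after the data were seen, the ratios were 1.84 (1.73 to 1.96) for Kit, 2 (1.73 to 2.32) for Kitl, 1.26 (1.19 to 1.33) for Pdgfra and 1.55 (1.32 to 1.84) for Pdgfa.

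Within the endoderm-like clusters of at least 58 cells in each library, Kit was higher with 4OHT by a ratio of 1.51 (1.32 to 1.73), 1.84 (1.67 to 2.03) and 1.52 (1.28 to 1.81) in those led by Ccn2, Pimreg and Gkn2. In the cluster led by Igfbp1, with 181 and 10 cells, the Kit ratio was 0.594 (0.253 to 1.19), whose interval includes 1. Pdgfra ratios in the first 3 were 1.32 (1.18 to 1.5), 1.23 (1.14 to 1.33) and 1.31 (1.06 to 1.63). Kitl had no common direction, at 1.61 (1.21 to 2.19), 1.82 (1.45 to 2.32) and 0.78 (0.609 to 1.02). Pdgfb and Pdgfc also had ratios above 1 over all endoderm-like cells, at 3.66 (2.04 to 7.21) and 2.97 (1.38 to 7.62), on 12 and 7 UMIs in -4OHT. Without the Amn and Cubn cluster these were 2.47 (1.17 to 6.24) and 1.64 (0.674 to 5.18), and in the cluster led by Pimreg 1.2 (0.437 to 4.59) and 1.14 (0.355 to 5.8). The interval includes 1 in each of these but the first. Pou5f1, the deleted gene, had a ratio of 0.15 (0.124 to 0.181) over all endoderm-like cells and of 0.596 (0.401 to 0.917) without that cluster. It was 0.584 (0.182 to 2.99), 0.261 (0.152 to 0.463) and 0.956 (0.361 to 3.58) in those led by Ccn2, Pimreg and Gkn2.

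**Figure D4:**
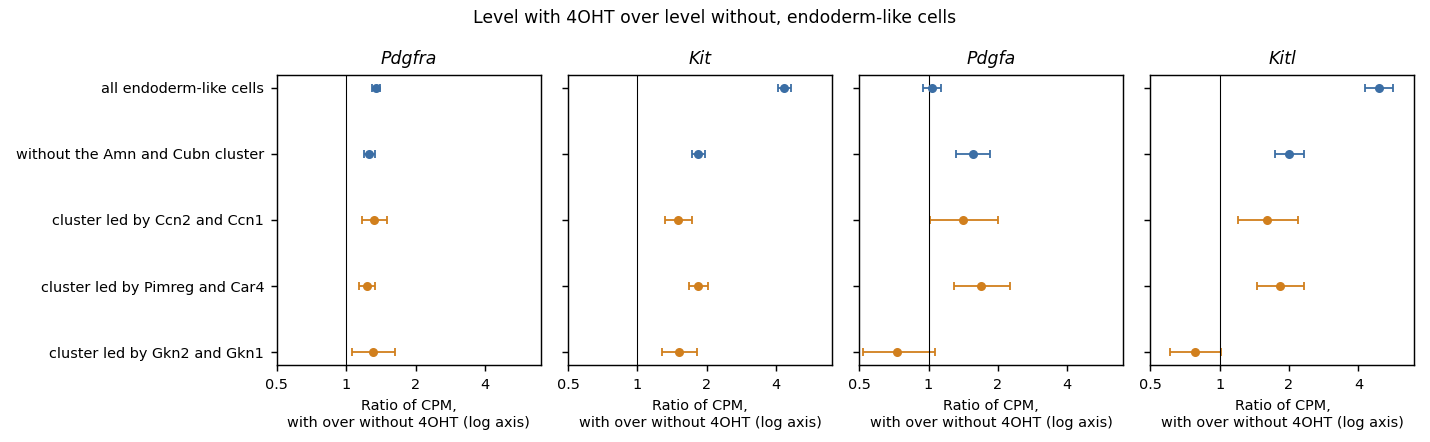
Ratio of the summed level with 4OHT to that without in endoderm-like cells, on a log axis with exact 95% intervals of counting error, for the whole class, without the cluster led by Amn and Cubn, and in 3 clusters held by both libraries. Over the whole class Kit is at 4.35 and Kitl at 4.9, without that cluster they are at 1.84 and 2, and Pdgfra goes from 1.35 to 1.26.

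Kit and Kitl UMIs were found together in part of the endoderm-like cells. In +4OHT, 83.9% of endoderm-like cells had a Kit UMI and 30.7% a Kitl UMI, and 26.9% (25.8 to 28) had both. Of cells with Kitl, 87.5% (86 to 89) had Kit, close to the 83.9% of all endoderm-like cells there. In -4OHT, 7.02% (5.71 to 8.51) had both and 76.6% (68.2 to 83.7) of Kitl cells had Kit, against 36.6% of all endoderm-like cells there. Kitl was seen in 19.1% of -4OHT endoderm-like cells with Kit and in 3.38% of those without, and in 32.1% and 23.8% in +4OHT. After thinning these shares were 15.5% and 3.12% in -4OHT and 23.5% and 17.9% in +4OHT. The cluster led by Amn and Cubn was low for both genes, and without it 14.3% of the -4OHT cells had both.

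Pdgfrb and Pdgfc were sparse outside fibroblast-like cells. These cells, led by collagens and other matrix genes, held Pdgfrb at 65 CPM (45 to 90.9) in -4OHT and 132 CPM (109.2 to 159) in +4OHT, and Pdgfc at 17.2 CPM (7.87 to 32.7) and 18.6 CPM (10.6 to 30.2). In +4OHT they were 0.455% of cells and held 80.9% of the 141 Pdgfrb UMIs. In -4OHT they held 14.3% of 238, and epiblast-like cells held 83.6%. Trophectoderm-like cells had Pdgfrb at 7.56 CPM (4.84 to 11.25) in +4OHT, with 17% of the Pdgfrb UMIs there. In -4OHT they had Pdgfc at 10.4 CPM (3.38 to 24.3), on 5 UMIs. Fibroblast-like cells also carried 1299 and 2956 CPM of summed endoderm markers, and their Pdgfra (28.7 and 82.4 CPM) and Kit (17.2 and 73.2 CPM) stand beside that.

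**Figure D5:**
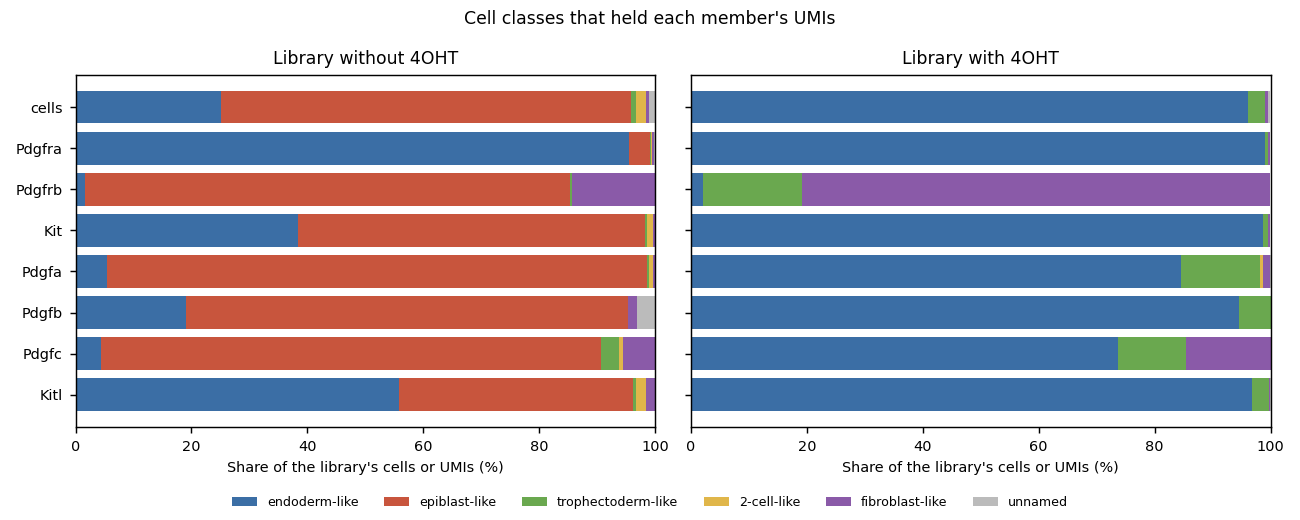
Share of the cells and of the UMIs of each member held by each cell class, in percent, in the library without 4OHT (left) and with it (right). Without 4OHT, Pdgfra UMIs come from endoderm-like cells and Pdgfa, Pdgfc and Pdgfrb UMIs mainly from epiblast-like cells. Epiblast-like cells hold 76.2% of the 63 Pdgfb UMIs there, near their 70.7% of cells. With 4OHT, Pdgfrb UMIs come mainly from fibroblast-like cells.

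Pdgfrb in epiblast-like cells was low but not evenly shared with endoderm-like cells. It stood at 2.72 CPM (2.35 to 3.12) against 0.19 CPM (0.0517 to 0.486) in endoderm-like cells of the same library, and was seen in 4.97% and 0.295% of cells, or 2.01% and 0.0799% after thinning. Col1a1 was at 3720 CPM in the fibroblast-like cluster and at 0 to 1.67 CPM in each of the other clusters, and the part of fibroblast RNA in the Pdgfrb level was not tested. Pdgfc had the same pattern, at 1.91 CPM (1.61 to 2.26) and 0.332 CPM (0.134 to 0.684). In bulk, Oct4+ was likewise the sort with the most Pdgfrb and Pdgfc.

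Pdgfb was sparse as well. It was at 0.656 CPM (0.483 to 0.869) in epiblast-like cells and 0.569 CPM (0.294 to 0.995) in endoderm-like cells of -4OHT, which overlapped, and at 2.08 CPM (1.78 to 2.42) in endoderm-like cells of +4OHT. Pdgfrb had 4 and 3 UMIs in the endoderm-like cells of -4OHT and +4OHT, too few to ask whether it occurs with Pdgfb. Pdgfra and Pdgfa were detected together in 23.9% (21.6 to 26.2) of these cells in -4OHT and 21.3% (20.2 to 22.3) in +4OHT.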

How the data were processed

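Bulk RNA was measured in 9 sorted libraries and droplet single-cell RNA in 2 libraries. The authors deposited raw counts per gene for bulk (strand-specific kit, single-end reads; no aligner, counter or annotation is named in the labels or methods read) and UMI counts per barcode made with Cell Ranger 6.1.2 per the file headers. Bulk counts were tested with the quasi-likelihood test of edgeR 4.0.16 in R 4.3.3, with TMM scaling, filterByExpr and all 9 libraries in 1 fit, with Benjamini-Hochberg adjustment over 14185 genes. CPM are TMM-scaled, and RPKM use exon lengths from GENCODE. A table line with no gene name was left out (35 such lines, holding 0 counts). DESeq2 1.42.0, other scalings and filters, single libraries left out and a replicate block were alternatives. Samples with the same number deviated together between DP and Pdgfra+ (correlations 0.271, 0.477 and 0.321). Correlations between samples with different numbers were not computed, and the labels do not state a pairing. The main fit used groups only.

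Barcodes with at least 1000 genes and under 20% mitochondrial UMIs were kept, the 5% with the highest doublet score per library were left out, and cells were clustered (Leiden, resolution 0.5, 20 principal components of 2000 variable genes without the members; leidenalg 0.10.2, scikit-learn 1.9.0). A cluster took a name where at least 3 markers were at 5 CPM or more and their mean share of the highest cluster was at least 0.4, a rule chosen after the data were seen. Summed UMIs were compared, with a second set thinned to 7600 UMIs per cell. The edgeR test between DP and Pdgfra+ was tried on simulated counts, and the clustering and promoter steps were not. Named genes were all members, the 3 with the largest change past the threshold in each pathway list, and the 3 most alike in profile to each member. The neighbours of Pdgfra and Kit were named as a list, and Pik3cd and the comparison of Amn and Cubn with Kit were chosen after their values were seen. The members and lists were chosen with earlier results of these data known.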

Additional observations from a re-analysis of the deposited data

How the results depend on the processing

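Of 470 values recomputed for bulk, 443 kept their direction and side of the threshold, 12 moved, 3 gained the threshold and 12 turned in sign. The number of genes past the threshold between DP and Pdgfra+ was 552, and it was 1023 without a filter on low counts and 914 by DESeq2. Leaving out single libraries gave 57 to 728 (57 without Pdgfra+ replicate 3, 363 and 148 without Pdgfra+ replicates 1 and 2, 124 and 121 without DP replicates 2 and 3), with 0 to 1 members and 1 to 6 pathway genes. Pathway genes there numbered 1, and 3 without a filter, 3 by DESeq2 and 2 with the replicate block over 6 libraries. Kit passed in 1 setting between DP and Pdgfra+ (without DP replicate 1) and in 1 between DP and Oct4+ (without DP replicate 2, log2 1.66), and Pdgfa between DP and Oct4+ without Oct4+ replicate 2 (log2 -1.57). Signs turned only among members that did not pass. With single libraries left out, DP against Pdgfra+ ran from -1.75 to 0.90 (log2) for Pdgfc, from -1.57 to 0.028 for Pdgfrb and from -1.15 to 0.48 for Kitl. DP against Oct4+ ran from -1.05 to 0.29 for Pdgfb and from -0.62 to 0.33 for Kitl, and Oct4+ against Pdgfra+ from -0.72 to 0.15 for Pdgfb and from -0.92 to 0.54 for Kitl. The causes were not tested.

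With the replicate block over 9 libraries, Kit between DP and Pdgfra+ was -1.36 (log2), and the block changed the call of no member. In the other comparisons, samples with the same number had correlations of -0.0728 to 0.152.

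In single cells 502 of 624 values kept within counting error and 122 moved, 68 of them by 1.5-fold or more. The ratio with 4OHT for Pdgfra was 1.415 with doublet-like barcodes kept and 1.418 with no barcode filter, 1.27 thinned and 1.26 without the cluster led by Amn and Cubn. For Kit these were 4.67, 4.69, 3.79 and 1.84, and 3.56 as a mean over cells. For Pdgfa it was 0.847, 0.837 and, without that cluster, 1.55. For Kitl it was 3.81 as a mean over cells, 3.93 thinned and 1.998 without that cluster.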
